A study of Mus musculus with 96 samples.

Results

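The miRNAs of the imprinted Dlk1-Dio3 locus were followed in 4 cell types isolated from the mouse heart before and after acute myocardial infarction (AMI). The set held 60 mature miRNAs of the cluster on mouse chromosome 12, taken by name from the 1978 mature sequences in the count files, 1561 of them with a count somewhere in the series. The cells were fibroblasts (FBs), endothelial cells (ECs), cells of haematopoietic origin (HCs) and cardiomyocytes (CMs), all taken from male C57Bl/6J mice aged 12 to 14 weeks. D0 stands for mice without infarction, and D1, D3, D7, D14 and D28 are the days after permanent ligation of the left anterior descending artery. Each of the 24 combinations of cell type and day had 4 small RNA libraries, each of them a pool of RNA of 3 animals (2 in pools with a missing sample). The cell types of a day came from the same animals, so libraries of different cell types are not independent. CMs were collected by repeated slow centrifugation, ECs with beads against CD144, HCs with beads against CD45, and FBs by short plating, after which they stained for DDR2. Library preparation was done per cell type with its own RNA input and number of PCR cycles, so cell type and preparation cannot be told apart.

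The Dlk1-Dio3 locus is imprinted: its coding genes Dlk1, Rtl1 and Dio3 are read from the paternal chromosome, and its noncoding RNAs Meg3, Rian and Mirg from the maternal one. The miRNAs are cut from the maternal transcripts, which are thought to run as one long RNA through the cluster. They are best known from the embryo, the placenta and the brain, and from stem and progenitor cells of mesenchymal tissues, and are low in most adult tissues. The miRNAs opposite Rtl1, among them miR-127, miR-433, miR-434 and miR-136, pair perfectly with the Rtl1 mRNA and direct its cleavage.

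RefSeq mature sequences (GRCm38.p6) were found for 57 of the 60 members, which came from 42 hairpins on the plus strand of chr12:109563692-109743795, a stretch of 180.1 kb. Meg3 (chr12:109541001-109571726) held 2 members, and 7 lay between Meg3 and Rtl1. Another 9 lay opposite Rtl1 (chr12:109589193-109600330, minus strand) and 2 within Rian (chr12:109603940-109661716). The largest segment, from miR-379 to miR-410, held 40 members and began upstream of the annotated start of Mirg (chr12:109729764-109749460). The 57 sequences carried 56 distinct seeds, the bases 2 to 8 that pair with a target mRNA. The 5 most abundant members in FBs are shown first, with the seed in capitals. mmu-miR-127-3p lay opposite Rtl1 at chr12:109592888-109592909, mmu-miR-434-5p opposite Rtl1 at chr12:109594528-109594549, mmu-miR-379-5p at chr12:109709065-109709085, mmu-miR-411-5p at chr12:109710190-109710210 and mmu-miR-541-5p within Mirg at chr12:109742422-109742446. No pair of these 5 shared a seed.
mmu-miR-127-3p: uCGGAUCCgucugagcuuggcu
mmu-miR-379-5p: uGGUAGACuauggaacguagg
mmu-miR-541-5p: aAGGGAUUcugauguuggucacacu
mmu-miR-434-5p: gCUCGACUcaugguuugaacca
mmu-miR-411-5p: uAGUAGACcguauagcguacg

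The next sequences belong to members with large changes after AMI in FBs, ECs or HCs, or that fell in FBs, chosen among members with a mean of at least 10 CPM (counts on the miRNA per 1000000 mature miRNA counts) in that cell type, again with the seed in capitals.
mmu-miR-323-3p: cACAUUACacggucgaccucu
mmu-miR-341-3p: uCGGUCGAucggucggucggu
mmu-miR-376b-3p: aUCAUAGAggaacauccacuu
mmu-miR-376b-5p: gUGGAUAUuccuucuaugguua
mmu-miR-134-5p: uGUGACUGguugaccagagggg
mmu-miR-409-5p: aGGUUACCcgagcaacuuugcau
mmu-miR-409-3p: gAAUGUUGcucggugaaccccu
mmu-miR-382-5p: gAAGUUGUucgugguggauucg
mmu-miR-136-5p: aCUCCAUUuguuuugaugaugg
mmu-miR-668-3p: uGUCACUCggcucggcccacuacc

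The only seed shared by members was that of mmu-miR-379-3p and mmu-miR-411-3p. Over 22 bases they differed at U10C and U22C, with the base of mmu-miR-379-3p first and positions counted from 1 at the 5′ end. mmu-miR-300-3p and mmu-miR-381-3p were also near copies, differing at G4A, U21G and C22U with the base of mmu-miR-300-3p first, and the first of these lies in the seed. Reads of such near copies can be split between them by the counting, so single values of these 4 members are less certain. The same holds, with more differences, for mmu-miR-376a-3p and mmu-miR-376b-3p (3 of 21 bases), mmu-miR-154-3p and mmu-miR-369-3p (4 of 21) and mmu-miR-543-3p and mmu-miR-495-3p (4 of 22), which touches the changes of mmu-miR-376b-3p and mmu-miR-154-3p given further on.
mmu-miR-379-3p: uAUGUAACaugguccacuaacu
mmu-miR-411-3p: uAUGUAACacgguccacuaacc
mmu-miR-300-3p: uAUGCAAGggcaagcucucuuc
mmu-miR-381-3p: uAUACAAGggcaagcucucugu

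The depth of the libraries, in counts on mature miRNAs, ran from 2217588 to 65588543 in FBs, from 525651 to 29037628 in ECs, from 3327351 to 24279105 in CMs and from 18286 to 29504666 in HCs. The shallowest library, HC D0 replicate 3, held 9 member counts, stood farthest from its group, and a count of 0 in it allows up to 164 CPM. Members had 24379 to 1631593 counts per library in FBs, 635 to 64372 in ECs and 686 to 15381 in CMs. Known marker miRNAs were highest in their own cells: the summed CM markers (miR-1a, miR-133a, miR-208a, miR-499) took 31.1 to 70.9% of counts in CMs, the EC markers (miR-126a) 10.4 to 23.4% in ECs and the FB markers (miR-199a, miR-214) 4.08 to 8.92% in FBs. The HC markers (miR-223, miR-142a, miR-150) took 0.682 to 2.57% in HCs. The other preparations were not free of them, since CM markers took up to 16.2% in ECs and up to 13.2% in HCs, and FB markers up to 1.88% in HCs, up to 1.12% in ECs and up to 0.237% in CMs.

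Summed over all 60 members, the locus took about 1% of mature miRNA counts in FBs and far less in the other cells at D0. The mean share was highest at D7 in every cell type, though in HCs the D7 libraries overlapped those of D14 and D28. The sum is a description without a test. In FBs the sum at D0 was 1.10, 1.10, 1.03 and 1.02% in the 4 libraries, at D3 1.39, 1.98, 1.59 and 1.34%, and at D7 2.10, 1.79, 2.49 and 3.09%. The D3, D7 and D14 libraries all lay above the D0 libraries, and the D1 and D28 libraries overlapped them. The FB means were 0.967, 1.48, 2.23, 1.37 and 0.900 times the D0 mean, in order of the 5 later days. In a bulk sample a higher share of a cell type and more RNA per cell cannot be told apart.

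ECs started at 0.0744, 0.0697, 0.0811 and 0.0629% and reached 0.319, 0.452, 0.589 and 0.370% at D7, a mean 6.00 times that of D0. The EC libraries of D3, D7, D14 and D28 all lay above those of D0, with means 2.60, 6.00, 2.77 and 3.24 times the D0 mean. By share of counts CMs held the least, 0.00685, 0.00486, 0.00612 and 0.00735% at D0 and 0.0337, 0.0615, 0.0532 and 0.0906% at D7, a ratio of means of 9.49. That ratio was 2.39 when the counts were divided by TMM-scaled library sizes (trimmed mean of M values, a scaling that treats most miRNAs as unchanged). At D28 the CM sum was 1.98 times D0 by share of counts but 0.693 times by the TMM-scaled sizes, so its direction at D28 depended on the scaling. The order of CMs and HCs did too, since the TMM-scaled means were 0.0415% in CMs and 0.0398% in HCs at D0 and 0.0993 and 0.0828% at D7. HCs took another course: the sum was 0.0560, 0.0690, 0.0492 and 0.0736% at D0, lay below all D0 libraries at D1 with 0.0403, 0.0332, 0.0354 and 0.0282%, and lay above them at D7 with 0.123, 0.120, 0.227 and 0.150%. The HC sum was still 2.23 and 2.29 times the D0 mean at D14 and D28. Its mean was 0.155% at D7, 0.138% at D14 and 0.142% at D28. Only D7 replicate 3, with 0.227%, lay above the highest libraries of D14 (0.151%) and D28 (0.159%).

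**Figure D1:**
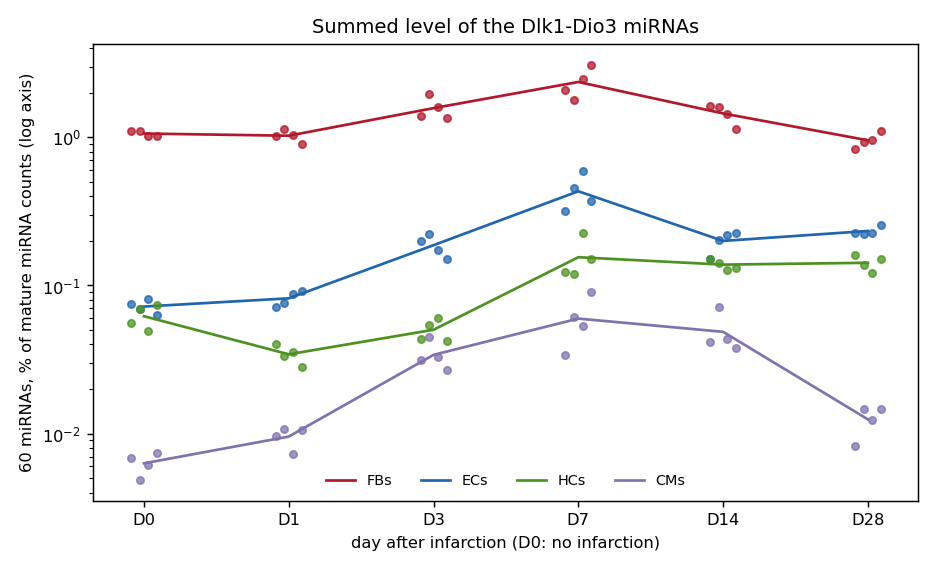
Summed share of the 60 Dlk1-Dio3 miRNAs (y axis, percent of mature miRNA counts, log axis) by day (x axis), with 1 point per library and lines through the means of 4 libraries. FBs lie above the other cell types on every day, all 4 cell types have their highest mean at D7, and HCs dip at D1. The HC libraries of D7 overlap those of D14 and D28, except replicate 3.

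Every member that passed a filter on low counts had higher levels in FBs than in each of the other cell types. Of the 60 members, 56 passed the filter on low counts in the fit of all 96 libraries, and all 56 were higher in FBs than in ECs as a mean over days (edgeR quasi-likelihood test, adjusted p under 0.05 and a log2 difference of at least 1), where 25.8% of all 712 miRNAs tested were. The same held for 56 of 56 against HCs (28.5% of all) and 56 of 56 against CMs (33.3% of all). The filter asked for enough counts in only as many libraries as 1 group holds, so a member could enter through FBs alone. In the fits per cell type 56 members passed in FBs, 41 in ECs, 45 in HCs and 40 in CMs. For members low outside FBs the higher FB level was thus set by the filter. The median log2 difference of the tested members was 2.90 against ECs, 4.35 against HCs and 4.20 against CMs, beside 0.20, -0.31 and 0.22 over all miRNAs. mmu-miR-127-3p, the most abundant member in each cell type, had a mean of 5986 CPM in FBs, 905 CPM in ECs, 393.5 CPM in HCs and 86.1 CPM in CMs. Its log2 difference between FBs and ECs was 2.77 (SE 0.11, edgeR adjusted p 2.65e-41), between FBs and HCs 4.73 (adjusted p 9.2e-56) and between FBs and CMs 4.79 (adjusted p 5.76e-57). By the mean of the 3 log2 differences, the FB excess was smallest for mmu-miR-337-3p, with log2 differences of 1.77, 3.55 and 1.96 against ECs, HCs and CMs, and for mmu-miR-369-3p with 1.26, 3.97 and 2.99. It was largest for mmu-miR-382-5p with 2.90, 4.79 and 6.03 and for mmu-miR-673-5p with 2.99, 4.79 and 5.88. mmu-miR-337-3p averaged 20.7 counts in FBs and was too low for the day tests in the other cells, so its place in this order is uncertain.

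Among the other cells, ECs stood next to FBs as a mean over days. In ECs 38 of the 56 tested members were higher than in HCs (27.8% of all miRNAs) and none lower. Of the 38 calls 12 were left at a log2 difference of at least 2, and fewer members differed with library size alone. At D0 the summed shares overlapped, with 0.0629 to 0.0811% in ECs and 0.0492 to 0.0736% in HCs. Against CMs, 31 members were higher in ECs (28.9% of all) and 3 lower (25.8% of all). The 3 lower in ECs, named after their values were seen, were mmu-miR-377-3p with a log2 difference of -2.60, mmu-miR-136-5p with -1.56 and mmu-miR-136-3p with -1.21. HCs and CMs differed in few members: 2 were higher in HCs (32% of all), mmu-miR-382-5p by 1.23 and mmu-miR-673-5p by 1.08, and 5 were lower (27.4% of all). The 5, also named after their values were seen, were mmu-miR-381-3p with -2.71 (SE 0.15, edgeR adjusted p 7.87e-31), mmu-miR-136-5p with -1.54, mmu-miR-376c-3p with -1.31, mmu-miR-154-5p with -1.12 and mmu-miR-410-3p with -1.03. Differences against CMs turned on the scaling: with library size alone, 45 members differed between HCs and CMs, and the values of mmu-miR-136-5p, mmu-miR-376c-3p, mmu-miR-154-5p and mmu-miR-410-3p were positive.

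A few members made up most of the counts, and the order of levels was much alike in the 4 cell types. The 5 most abundant members took a median of 77.0% of member counts in FBs, 75.4% in ECs, 74.6% in HCs and 64.7% in CMs, and mmu-miR-127-3p alone took 44.3, 45.4, 39.8 and 34.3%. In FBs 3 members had a mean of at least 1000 CPM, 16 at least 100, 40 at least 10, and 7 stood under 1 CPM; in CMs none reached 100, 6 reached 10 and 30 stood under 1. After mmu-miR-127-3p, the FB order was mmu-miR-379-5p with 2116 CPM, mmu-miR-541-5p with 1231, mmu-miR-434-5p with 712 and mmu-miR-411-5p with 647. The same 5 stood at 905, 327, 185, 53.7 and 61.3 CPM in ECs, taken in that order. CMs departed most from this order, since mmu-miR-381-3p came second there with 32 CPM while it came eighth in FBs with 276 CPM. Spearman correlations of the mean levels between cell types over the 60 members were 0.993 between FBs and HCs, 0.977 between FBs and ECs and 0.908 between FBs and CMs, a description over members that share libraries. mmu-miR-758-3p had no count in any library, and mmu-miR-382-3p had counts in 2 FB libraries and 1 CM library.

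The segments of the locus contributed in like proportions. The members opposite Rtl1 took a median of 52.8% of member counts in FBs, 52.7% in ECs, 51.4% in HCs and 45.4% in CMs. The miR-379 to miR-410 segment took 43.7, 45, 45.5 and 52.1% in the same cells, and the members within Rian and within Meg3 each took under 1% in all 4. Levels of single miRNAs also depend on how well each ligates and amplifies, so shares of different miRNAs within a library are only approximate.

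In FBs 28 of the 56 members tested were higher than at D0 on D3 and 39 on D7, and none was called at D28. Of the 56 members tested, 47 changed over the 6 days (edgeR, 68.2% of all 563 miRNAs tested). The 28 higher at D3 compare with 22.9% of all miRNAs and stood beside 2 lower (20.1%), and the 39 higher at D7 compare with 24.5%, with none lower. At D14, 12 were higher (14.4%) and 1 lower (10.3%), though these 13 calls became 24 without D0 replicate 2, 8 without D0 replicate 3 and 8 without D14 replicate 1. The median log2 change of the tested members was 0.66 at D3 and 0.91 at D7, beside 0.06 and -0.07 over all miRNAs. At D1, 1 member was lower (2.13% of all) and none higher. At D28 edgeR called none higher (4.8% of all) and none lower (1.95% of all), while 2 had an unadjusted p under 0.05 and DESeq2 called 1.

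The 5 most abundant FB members (sequences above) were all higher at D7, and 2 of them, mmu-miR-541-5p and mmu-miR-434-5p, also at D3. At D3 mmu-miR-127-3p, mmu-miR-379-5p and mmu-miR-411-5p had log2 fold changes of -0.16, 0.16 and 0.27, which did not pass. mmu-miR-127-3p, which directs cleavage of Rtl1 mRNA, stood at 5438, 5263, 4661 and 4519 CPM at D0 and at 8021, 7653, 9771 and 12533 CPM at D7. The groups did not overlap, and the log2 fold change was 0.71 (SE 0.17, edgeR adjusted p 0.00122). mmu-miR-379-5p, the first miRNA of the largest segment, went from 1472, 1627, 1494 and 1507 CPM to 3578, 2566, 4321 and 5776 CPM, a log2 fold change of 1.18 (SE 0.20, adjusted p 5.09e-05). The D0 libraries of both lay close together, while those of D7 spread more, with replicate 4 highest each time. mmu-miR-434-5p, encoded opposite Rtl1, had 414, 444, 456 and 453 CPM at D0 and 1392, 1204, 1622 and 2023 CPM at D7, a log2 fold change of 1.59 (SE 0.19, adjusted p 4.8e-07). The log2 fold changes of mmu-miR-541-5p and mmu-miR-411-5p at D7 were 1.07 (SE 0.20) and 0.89 (SE 0.17), and for neither did the D0 and D7 libraries overlap.

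Among members that averaged 10 CPM or more in FBs, the 3 largest rises were in less abundant ones. mmu-miR-323-3p stood at 4.58, 6.76, 4.06 and 3.51 CPM at D0 and at 30.7, 21.4, 39.0 and 51.6 CPM at D7, a log2 fold change of 2.80 (SE 0.34, edgeR adjusted p 5.3e-07). mmu-miR-341-3p, encoded within Rian, went from 22.5, 13.1, 17.3 and 17.9 CPM to 76.4, 63.7, 137 and 119 CPM, a log2 fold change of 2.24 (SE 0.24, adjusted p 7.83e-08). Both were already high at D3, where the mmu-miR-341-3p libraries read 77.1, 89.1, 76.2 and 48.6 CPM, and by D28 neither had a library above its highest D0 library. mmu-miR-376b-3p, of a family known for RNA editing in the brain, peaked at D3 with 35.9, 34.6, 23.9 and 10.8 CPM against 5.68, 4.51, 5.43 and 6.64 CPM at D0 (log2 fold change 1.87, SE 0.33, adjusted p 5.02e-05). Its D3 libraries spread widely, yet all lay above D0.

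**Figure D2:**
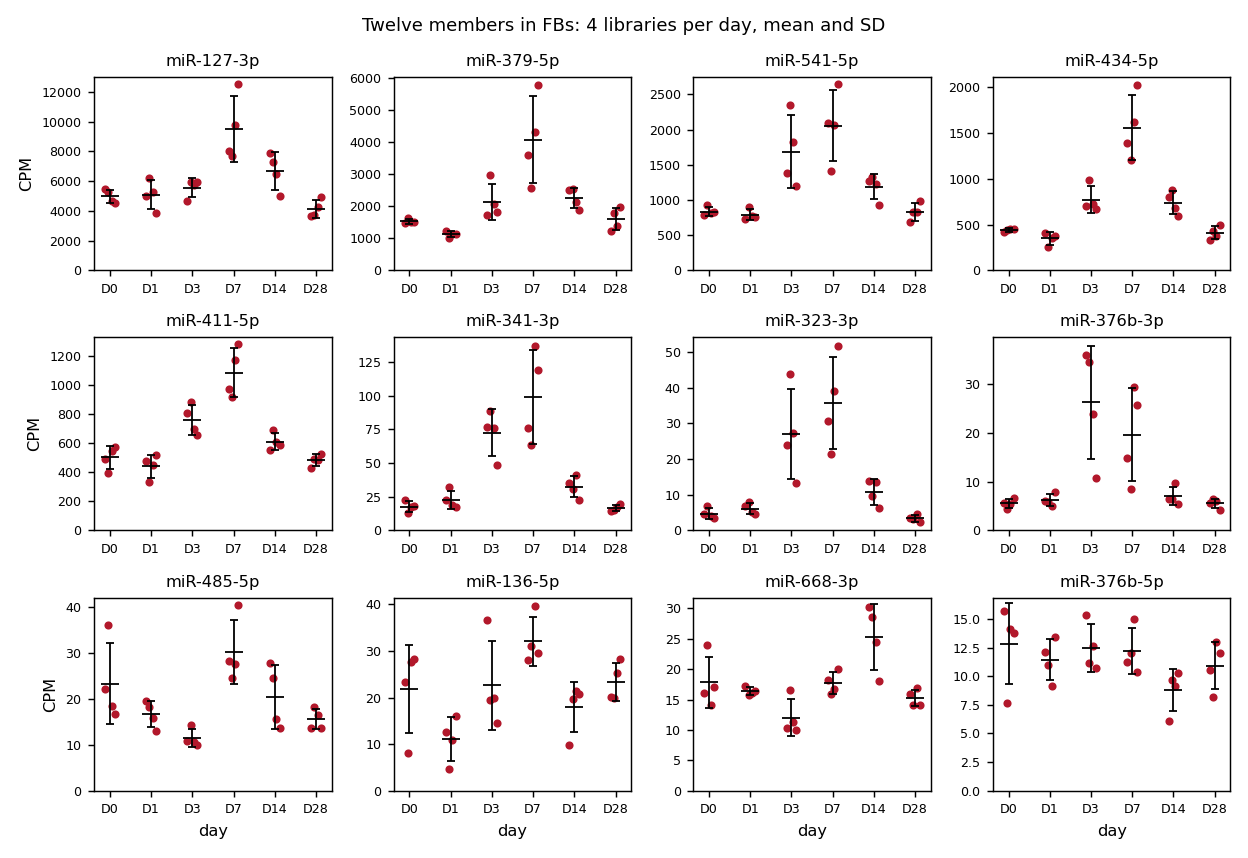
Levels of 12 members in FBs (y axis, CPM from 0, own scale per panel) by day (x axis), with 1 point per library and bars for the mean and SD of 4 libraries. The 8 members in the upper part of the grid peak at D3 or D7, while mmu-miR-485-5p, mmu-miR-136-5p, mmu-miR-668-3p and mmu-miR-376b-5p each have a day on which they were lower than at D0.

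Few members fell in FBs, and on different days. mmu-miR-485-5p fell at D3 from 22.1, 36.1, 18.4 and 16.6 CPM to 10.8, 14.3, 10.6 and 9.91 CPM (log2 fold change -1.32, SE 0.26, edgeR adjusted p 0.000159). mmu-miR-668-3p fell on the same day from 16.1, 23.9, 14.1 and 17.1 CPM to 10.3, 16.5, 11.3 and 10.0 CPM (log2 fold change -0.86, SE 0.20, adjusted p 0.0014), with overlap between the groups. mmu-miR-136-5p was the 1 member called at D1, with 23.3, 8.12, 27.7 and 28.3 CPM at D0 and 12.6, 4.69, 11 and 16.1 CPM at D1 (log2 fold change -1.20, SE 0.33, adjusted p 0.023). D0 replicate 2 lay below most D1 libraries, and the count of members called at D1 was 0 without D0 replicate 1, 3 or 4 or D1 replicate 3. mmu-miR-376b-5p was the 1 member lower at D14, from 15.7, 7.67, 14.1 and 13.7 CPM to 6.10, 9.66, 9.11 and 10.3 CPM (log2 fold change -0.61, SE 0.21, adjusted p 0.0308), and this call was lost with the replicate number as a block and without a filter on low counts.

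Within FBs the summed shares of the segments, given without a test, had different sizes of change at D3. The members opposite Rtl1 had 1.20 times their D0 mean at D3 and 2.02 times at D7, and the miR-379 to miR-410 segment 1.83 and 2.53 times. Both members within Rian were higher at D3 and at D7, and their sum was 3.18 and 4.34 times that of D0. At D3, 23 of 38 tested members of the miR-379 to miR-410 segment were higher (22.9% of all miRNAs) and 2 lower (20.1% of all). Opposite Rtl1 2 of 9 were higher, near the share of all miRNAs. By D7 the counts were 28 of 38 and 5 of 9 (24.5% of all). The difference between segments was not tested.

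**Figure D3:**
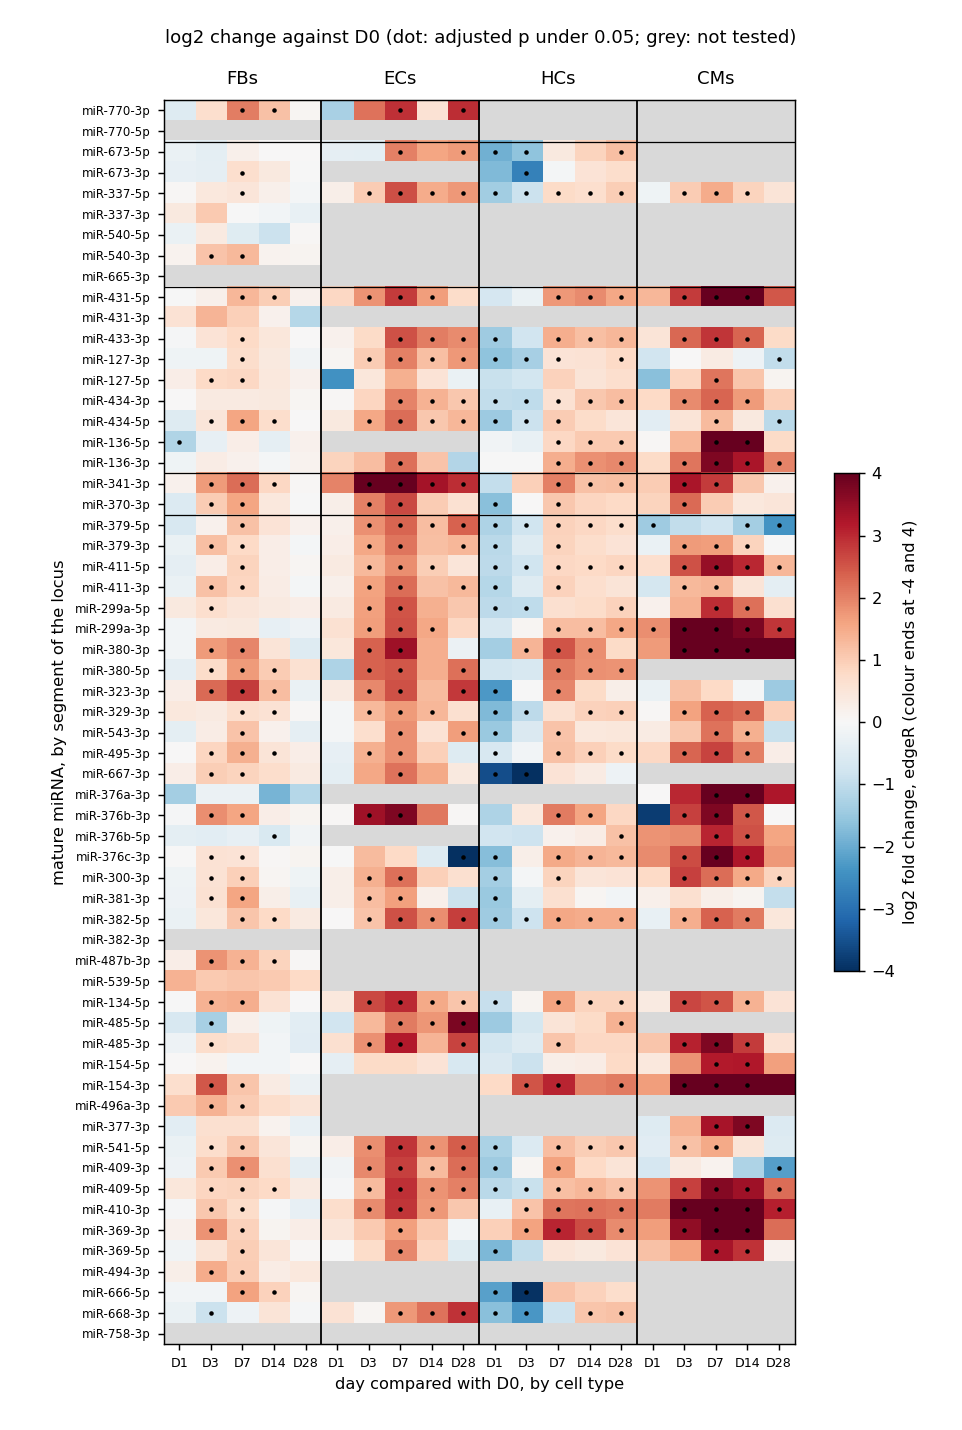
log2 fold changes against D0 (colour, blue lower, red higher, ends at -4 and 4) of the 60 members (rows, in locus order with lines between segments) for each day and cell type (columns); dots mark an edgeR adjusted p under 0.05 and grey members were not tested. D7 is mostly red in all 4 cell types, HCs are mostly blue at D1, and FBs are pale at D1 and D28.

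In ECs no member passed the test at D1, and nearly all were higher at D7. All 41 members tested in ECs changed over the 6 days (58.2% of all 421 miRNAs tested). At D1 edgeR called none higher (0% of all) and none lower (0% of all), 2 had an unadjusted p under 0.05, and DESeq2 called 0. The numbers higher than at D0 were 27 at D3 (15.4% of all), 38 at D7 (17.8%), 19 at D14 (11.4%) and 22 at D28 (26.8%). Calls at D3 were 16 without D3 replicate 2 and 17 without D0 replicate 2, and the D28 calls in both directions, 23 with all libraries, were 15 without D28 replicate 4. The median log2 change of the tested members at D7 was 2.23, beside -0.01 over all miRNAs.

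mmu-miR-127-3p in ECs stood at 388, 352, 402 and 275 CPM at D0 and at 1364, 2031, 2394 and 1700 CPM at D7, a log2 fold change of 2.02 (SE 0.22, edgeR adjusted p 7.88e-08). mmu-miR-379-5p went from 87.1, 92.7, 118 and 97.8 CPM to 487, 648, 920 and 528 CPM, a log2 fold change of 2.32 (SE 0.30, adjusted p 7.56e-07). For both, every D7 library lay well above the highest D0 library. The largest EC rise under the naming rule was in mmu-miR-134-5p, known in neurons as a regulator of dendritic spines through Limk1, from 8.99, 11.6, 14.4 and 9.97 CPM to 80.6, 117, 177 and 106 CPM (log2 fold change 2.99, SE 0.31, adjusted p 3.91e-08). mmu-miR-409-5p rose by a log2 fold change of 2.92 (SE 0.36) and mmu-miR-541-5p by 2.87 (SE 0.27), again with no overlap between D0 and D7. The 1 member lower at D28 (20.2% of all miRNAs) was mmu-miR-376c-3p, with 1, 9, 44 and 5 counts in the D0 libraries and 0 in each D28 library. A count of 0 in the D28 libraries allows 5.71, 1.64, 4.72 and 0.769 CPM, so no fold change is given.

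In HCs many members were lower than at D0 on D1, and many were higher from D7 on. All 45 members tested changed over the 6 days (73.5% of all 608 miRNAs tested). At D1, 28 were lower than at D0 (28.9% of all) and none higher. At D3, 15 were lower, near the share of all miRNAs (28.1%), and 4 higher (30.9%). The D3 calls in both directions were 11 without D3 replicate 1, 12 without D3 replicate 4 and 10 with DESeq2. The D3 libraries overlapped those of D0 in the summed share. From D7 the direction turned: 32 were higher at D7 (29.9%), 23 at D14 (15.3%) and 27 at D28 (12.7%), with none lower. Without D0 replicate 1 the count was 15 at D14 and 12 at D28. The HC preparation shifted over the same days: the mean share of the HC markers was 0.803% at D0, 2.05% at D1 and 2.07% at D3, and that of the EC markers 7.23, 4.68 and 1.87%. Reads without a match made up 34.3 to 51.6% of the D0 libraries and 52.1 to 73.8% of the D1 libraries. The part of these shifts in the result was not tested. The median log2 change of the tested members was -1.23 at D1 and 1.08 at D7, beside -0.08 and 0.18 over all miRNAs.

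mmu-miR-127-3p in HCs had 253, 314, 273 and 336 CPM at D0 and 174, 113, 133 and 105 CPM at D1, a fall without overlap (log2 fold change -1.60, SE 0.23, edgeR adjusted p 3.15e-06). At D7 it stood at 458, 441, 867 and 538 CPM, above all D0 libraries, with a log2 fold change of 0.55 (SE 0.23, adjusted p 0.0492) that no longer passed without HC D0 replicate 3, with the replicate block or with the compared days alone. mmu-miR-379-5p fell at D1 by a log2 fold change of -1.22 (SE 0.25) and rose at D7 by 0.92 (SE 0.25). The largest D7 rises under the naming rule were in mmu-miR-409-3p (log2 fold change 1.61, SE 0.31), mmu-miR-134-5p (1.60, SE 0.28) and mmu-miR-382-5p (1.55, SE 0.26). mmu-miR-134-5p had 6.31, 7.61, 0 and 8.20 CPM at D0 and 22.6, 21.4, 52.3 and 23.9 CPM at D7. The 0 belonged to the shallow replicate 3, and the other D0 libraries lay below every D7 library. The 4 members higher at D3, named after their values were seen, were mmu-miR-154-3p (log2 fold change 2.51), mmu-miR-369-3p (1.62), mmu-miR-380-3p (1.35) and mmu-miR-410-3p (1.13).

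CMs held few member counts, and the scaling moved their changes most. The CM markers took a mean of 65.9% of counts at D0, 45.4% at D7 and 37.4% at D14. Most of this sum was miR-1a-3p, with 60.2 to 70.7% at D0 and 37.5 to 54.6% at D7. With TMM, 3 of the 4 CM markers were called higher and 1 lower at D7, and likewise at D14. EC markers went from 0.692 to 1.99% and HC markers from 0.0031 to 0.0224% between D0 and D7. With TMM, 1 of the 2 EC markers was called higher and 1 lower at D7, while 3 of the 4 HC markers were higher. Reads without a match made up 29.0 to 42.0% of the D0 libraries, 41.8 to 46.2% of D7 and 48.8 to 83.0% of D14. The part of these shifts in the member changes was not tested. Of the 40 members tested, 39 changed over the 6 days (73.8% of all 484 miRNAs tested). The members higher than at D0 were 25 at D3 (31.8% of all), 34 at D7 (38.8%), 29 at D14 (38%) and 6 at D28 (29.5%). Those lower were 1 at D14 (29.1%) and 4 at D28 (24.8%). At D1, 1 was higher (13.6%), mmu-miR-299a-3p, and 1 lower (11.4%), mmu-miR-379-5p, and between 0 and 8 members were called there when single libraries were left out, with 0 without D0 replicate 4, D1 replicate 3 or D1 replicate 4 and 8 without D0 replicate 1. With TMM the median log2 change at D7 was 2.83 for the tested members and 0.35 for all miRNAs, and with library size alone 5.07 and 2.67. A change of scaling shifts all miRNAs by nearly the same amount. The like distance of members from the median of all miRNAs therefore cannot decide between the scalings. At D1 the medians of members and of all miRNAs were 0.38 and 0.20 with TMM, and 1.34 and 1.42 with library size alone. Changes in CMs are read relative to the median of all miRNAs.

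mmu-miR-411-5p showed the largest called rise in CMs among members with at least 10 CPM on average. It stood at 1.43, 0.708, 0.748 and 0.918 CPM at D0 and at 25.8, 61.2, 51.4 and 77.1 CPM at D7, with a log2 fold change of 3.49 (SE 0.35, edgeR adjusted p 9.97e-08). mmu-miR-127-3p stood at 34.7, 23.7, 25 and 24.2 CPM at D0 and at 117, 156, 158 and 243 CPM at D7. Its log2 fold change was 2.65 by library size, near the median of 2.67 over all miRNAs, and 0.33 with TMM (SE 0.33, adjusted p 0.394), which did not pass. mmu-miR-541-5p and mmu-miR-434-5p had TMM log2 fold changes of 1.51 (SE 0.35) and 1.27 (SE 0.41) at D7, the second lost without D7 replicate 4. The 4 members called lower at D28 were mmu-miR-379-5p, mmu-miR-409-3p, mmu-miR-434-5p and mmu-miR-127-3p, with TMM log2 fold changes of -2.39, -2.22, -1.07 and -1.0. By library size mmu-miR-127-3p was higher at D28, by 0.75, and mmu-miR-434-5p by 0.64, both below the median of 1.99 over all miRNAs. mmu-miR-379-5p, with 10.7, 10.5, 15.8 and 14.2 CPM at D0 and 6.19, 9.53, 6.52 and 10.5 CPM at D28, was lower in both scalings, but passed the test with TMM only.

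FB markers also changed in the other preparations, by other amounts than the members, and their part in the changes was not tested. In ECs the mean share of the 4 FB markers was 0.242% at D0 and 0.937% at D7, 3.86 times as high, while the member sum was 6.00 times as high; all 4 FB markers rose at D7. In HCs the FB markers were 0.434% at D0, 0.321% at D1, 0.533% at D7 and 1.56% at D28. All 4 fell at D1, none passed the test at D7 and all 4 rose at D28. The HC member sum was 2.50 times D0 at D7 and 2.29 times at D28, beside 1.23 and 3.59 times for the markers. In CMs the FB markers went from 0.00571% at D0 to 0.171% at D7, 30.0 times as high, with all 4 called on each day from D3 on. At D28 they were 16.1 times as high as at D0 in CMs, while the member sum was 1.98 times as high. There were 30.0 member counts per 100 FB marker counts in ECs at D0 and 46.5 at D7, beside 20.1 and 44.5 in FBs themselves. In HCs the figure was 14.3 at D0, 28.8 at D7 and 9.33 at D28, and in CMs 135 at D0, 35.4 at D7 and 14.8 at D28. In FBs the share of the markers was 5.49% at D0 and 5.38% at D7, so the member sum and the markers parted there too.

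**Figure D4:**
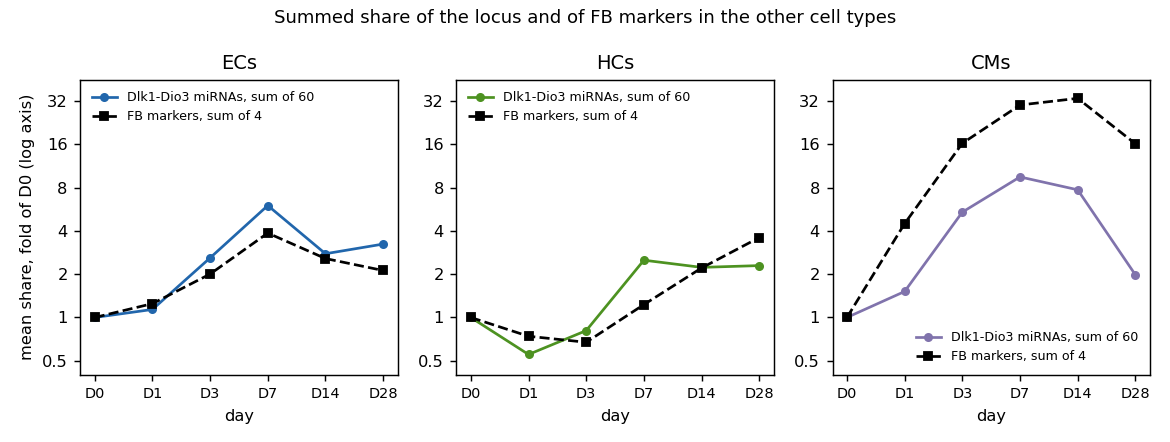
Mean summed share of the 60 members (solid) and of the 4 FB markers (dashed) in ECs, HCs and CMs (y axis, fold of the D0 mean, log axis) by day (x axis), each point the mean of 4 libraries. Members exceed the markers at D7 in ECs (6.00 against 3.86) and in HCs (2.50 against 1.23), and stay below them on every day after D0 in CMs (9.49 against 30.0 at D7).

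For many members the D7 change in FBs was smaller than the mean change of CMs, ECs and HCs. The median D7 change of the members tested in each cell type was 0.91 in FBs, 1.08 in HCs, 2.23 in ECs and 2.83 in CMs. HCs thus stood close to FBs, and FBs were not tested against each cell type alone. The test took the change in FBs minus the mean change of CMs, ECs and HCs in the fit of all 96 libraries. At D3 it called 1 of 56 members lower (2.95% of all miRNAs), mmu-miR-299a-3p with a log2 difference of -1.58 (SE 0.38, edgeR adjusted p 0.00264). At D7 it called 27 lower (20.2% of all) and none higher, with a median of -1.28 over the tested members beside -0.35 over all miRNAs. Among them were mmu-miR-409-5p with -1.78 (adjusted p 0.000319), mmu-miR-411-5p with -1.24 (adjusted p 0.00145) and mmu-miR-382-5p with -1.10 (adjusted p 0.0104). The 27 also held mmu-miR-337-3p and mmu-miR-494-3p, which were too low for the day fits of CMs, ECs and HCs. mmu-miR-136-5p, mmu-miR-154-3p and mmu-miR-376b-5p were too low for the day fit of ECs, and mmu-miR-668-3p and mmu-miR-673-5p for that of CMs. For all of these the mean change outside FBs rests in part on very low counts. Without a filter on low counts fewer members were called. The 2 most abundant members did not pass, mmu-miR-127-3p with -0.34 (adjusted p 0.382) and mmu-miR-379-5p with 0.29 (adjusted p 0.588, but -0.45 by library size). mmu-miR-127-3p passed by library size, with -1.07.

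A hairpin gives a 5p and a 3p arm, and the ratio of the arms within a library does not depend on scaling. Both arms were members for 18 hairpins, and those with a mean of at least 10 counts per arm were tested with limma on log2(5p/3p) after adding 0.5 to each count. The ratio changed over the 6 days in 14 of 16 hairpins tested in FBs (49.7% of all 147 hairpins), 6 of 8 in CMs (70.7% of 99), 2 of 9 in ECs (40.4% of 104) and 2 of 11 in HCs (15.8% of 152). The 2 in ECs fell to 0 without any single D7 library or D14 replicate 1, and the 2 in HCs became 4 without D0 replicate 3 and 1 without D0 replicate 1 or 2. The arms of miR-154 and miR-380, which with miR-376b had the widest ranges in FBs among hairpins with at least 50 counts per arm, were these, seeds in capitals.
mmu-miR-154-5p: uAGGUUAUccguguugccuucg
mmu-miR-154-3p: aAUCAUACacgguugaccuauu
mmu-miR-380-5p: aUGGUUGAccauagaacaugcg
mmu-miR-380-3p: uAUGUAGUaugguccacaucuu

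In these hairpins and in miR-376b (both arms shown above) the 3p arm gained on the 5p arm at D3. The log2(5p/3p) of miR-154 in FBs was 3.59, 2.04, 2.97 and 2.78 at D0 and 0.59, 0.35, 0.75 and 0.77 at D3, without overlap, and 3.18 ± 0.46 (SD, n = 4) at D28 (limma adjusted p over the days 4.23e-05). That of miR-376b was 1.47, 0.74, 1.37 and 1.05 at D0 and -1.22, -1.63, -0.92 and -0.01 at D3, so the more abundant arm turned from 5p to 3p (adjusted p 0.000298). miR-380 had 0.61 ± 0.50 (SD, n = 4) at D0, -0.22 ± 0.33 at D3 and 1.85 ± 0.26 at D28 (adjusted p 1.13e-05). The D28 libraries of miR-380 lay above those of D0, while its D3 and D0 libraries overlapped. A pair chosen after its values were seen, miR-485 and miR-434, went different ways: miR-485 had 0.00 ± 0.30 at D0 and -1.87 ± 0.63 at D3, and miR-434 had 0.99 ± 0.17 at D0 and 2.20 ± 0.13 at D7 (adjusted p 4.23e-05 each).

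Among hairpins whose arms both averaged 50 counts or more, miR-379 had the widest range in CMs, with a log2(5p/3p) of 4.11, 3.82, 5.53 and 4.83 at D0, 2.15 ± 0.38 (SD, n = 4) at D7 and 2.23 ± 0.45 at D28 (limma adjusted p 0.000947). Its 5p arm was lower relative to the 3p arm in every library of D3 to D28 than in any of D0. Reads of its 3p arm can be split with the near copy mmu-miR-411-3p, so the arm ratios of miR-379 are less certain. In FBs the same hairpin had 3.38 ± 0.18 at D0, 2.40 ± 0.41 at D3 and 3.61 ± 0.42 at D28 (adjusted p 0.000345). In HCs miR-409 had -0.80 ± 0.55 at D0, -1.91 ± 0.38 at D3 and -0.44 ± 0.24 at D28 (adjusted p 0.00712), with the 3p arm more abundant on each of these days. By the same limit the widest range in ECs was again that of miR-379, which missed the threshold (adjusted p 0.0557) and passed with 5 counts added to each arm (adjusted p 0.0312).

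**Figure D5:**
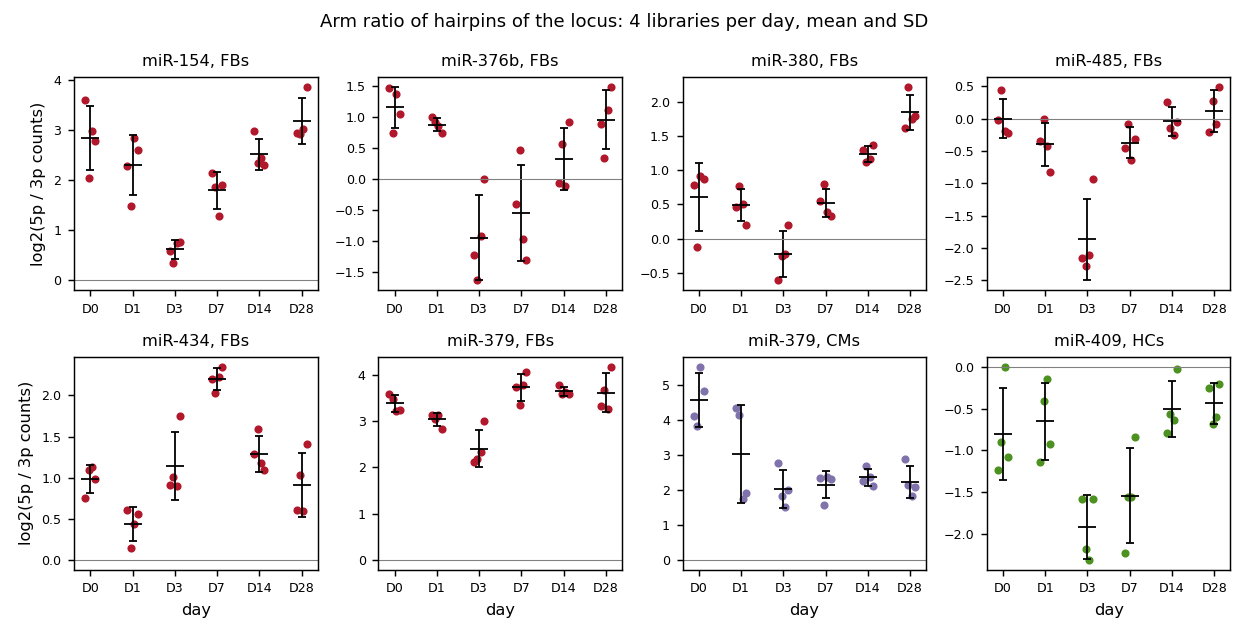
log2(5p/3p) of 7 hairpins (y axis, own scale per panel, grey line at 0) by day (x axis) in FBs, CMs or HCs, with 1 point per library and bars for the mean and SD of 4 libraries; miR-379 appears for FBs and CMs. miR-154, miR-376b, miR-380 and miR-485 have their lowest mean in FBs at D3, miR-434 its highest at D7, and miR-379 in CMs is lower from D3 on than at D0.

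Members also varied together from library to library. Over the 24 FB libraries, the 40 members with at least 10 CPM formed 780 pairs with a median Spearman correlation of 0.662, and 95% of pairs were positive, beside a median of 0.0548 over all pairs of the 288 miRNAs at that level. After the mean of each day was removed the median was 0.407, beside 0.0357 over all pairs. The medians before this step were 0.780 in ECs over 18 members, 0.823 in HCs over 14 and 0.853 in CMs over 6, beside 0.117, 0.0283 and 0.644 over all pairs. These are descriptions, since members of a library share its depth and preparation. Outside the locus, the FB miRNAs most like the member sum among 247 compared over the 24 libraries were mmu-miR-148a-5p with a Spearman correlation of 0.895, mmu-miR-99b-3p with 0.887 and mmu-let-7i-5p with 0.877.

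A further 50 mature sequences of the locus, not among the 60, were mostly too low to test. Of the 19 tested in FBs, 11 were higher (22.9% of all miRNAs) and 1 lower (20.1%) at D3 (edgeR). At D7, 10 were higher (24.5% of all) and none lower. mmu-miR-493-3p had a log2 fold change of 2.00 at D3 and 2.03 at D7, and mmu-miR-667-5p, the other arm of a member, 2.07 and 2.29. The 1 lower at D3 was mmu-miR-1247-5p with -1.50, which lies near Dio3 and apart from the cluster. All 4 tested in CMs (38.8% of all miRNAs) and both tested in ECs (17.8% of all) were higher at D7, which are very small sets.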

How the data were processed

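Small RNA was sequenced in 96 libraries of 4 cell types and 6 days. The authors trimmed reads with Trim Galore, dropped those under 18 nt, and aligned the rest with Bowtie2 to the mature sequences of miRBase version 21 in an nf-core pipeline; the labels name build mm10, and tool versions are not given in the sources used here. The deposited values are raw counts per mature miRNA and library. Reads without a match, 25.6 to 83.0% of a library, were kept out of totals and tests. Within a cell type the replicates were separate pools of mice. The pools of the cell types of a day drew on the same animals, but no source used here says that equal replicate numbers mark the same pool, so the fit between cell types carried no block. The members, marker lists and tests were chosen with earlier results of these data known.

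Counts were tested with edgeR 4.0.16 (quasi-likelihood, TMM, filterByExpr, R 4.3.3): 1 fit per cell type for the days, and 1 fit of all libraries for cell types and for the difference in change. Arm ratios were tested with limma 3.58.1. All p-values are two-sided and Benjamini-Hochberg adjusted over all miRNAs or hairpins tested, with a threshold of 0.05. Between cell types a log2 difference of at least 1 was also asked. CPM are counts per 1000000 mature miRNA counts. Sums, shares and correlations were computed with Python 3.11.15 and carry no test. Named members were the 5 most abundant in FBs and 2 in each other cell type, up to 3 rises and 3 falls per cell type among members with at least 10 CPM, the hairpins with the widest arm range at 50 or more counts per arm, near copies, and the ends of the order of FB excess. Counts of 563 miRNAs were simulated with the mean levels over all 24 FB libraries and with their library sizes, and changes were placed at D7. Against D0, 69.8% of changes of 1 and 93.3% of changes of 2 on the log2 scale were called, and 1.65% of unchanged miRNAs. Alternatives were DESeq2 1.42.0, library size alone, no filter, a replicate block, the compared days alone, and leaving out single libraries. The authors removed 1 library each from EC D28, HC D0 and FB D0 without naming it, and an alternative left out the library farthest from its group in each (EC D28 replicate 3, FB D0 replicate 2, HC D0 replicate 3). Floors and counts of 0 use 3 counts and cover counting error only.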

Additional observations from a re-analysis of the deposited data

Results flagged for a closer look

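Single libraries stood apart from the other 3 of their group in 7 of 102 sets of values examined, where chance gives about 1 in 20. CM D14 replicate 2 had a member sum of 0.0719% and 47.8 CPM of mmu-miR-379-5p, above the others of its group. CM D0 replicate 1 had 34.7 CPM of mmu-miR-127-3p. HC D7 replicate 3 was high in 3 members, with 47.0 CPM of mmu-miR-409-3p, 52.3 CPM of mmu-miR-134-5p and 48.1 CPM of mmu-miR-382-5p. HC D0 replicate 3 had 0 CPM of mmu-miR-382-5p, in a library of 18286 counts.

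Members whose change after AMI was smaller in FBs than the mean change of CMs, ECs and HCs, by edgeR's test of the difference, numbered 1 at D3 and 27 at D7. The member at D3 was mmu-miR-299a-3p, with a log2 difference of -1.58. At D7 the named members were mmu-miR-409-5p with -1.78, mmu-miR-411-5p with -1.24, mmu-miR-382-5p with -1.10, mmu-miR-134-5p with -1.0 and mmu-miR-541-5p with -0.87. The last 3 no longer passed without a filter on low counts. Others of the 27 were too low for the day fit of another cell type.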

How the results depend on the processing

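Of the counts of called members or hairpins, 166 of 195 recomputed under another setting stayed within 1.5 times the reported one. With library size alone the number of changed members was 18 in CMs at D1, 38 at D3 and 29 at D28, 3 in FBs at D1, 11 in HCs at D3 and 36 at D14, 21 between ECs and HCs, 45 between HCs and CMs, and 7 for the smaller FB change at D3. DESeq2 called 4 in FBs at D1, 1 at D28, 10 in HCs at D3, 17 at D28 and 12 between HCs and CMs. With the compared days alone the numbers were 0 in CMs at D1, 6 at D28 and 12 in ECs at D28. Without the farthest libraries they were 24 in FBs at D14, 2 for the smaller FB change at D3 and 4 HC hairpins. A log2 difference of at least 2 left 12 members between ECs and HCs, 18 between ECs and CMs and 1 between HCs and CMs. Without a filter the smaller FB change at D7 held for 16. With at least 50 counts per arm, 3 hairpins were called in CMs, 1 in ECs and 1 in HCs. With the replicate block 4 CM members at D1 and 1 EC hairpin were called, and no other count moved by over 1.5 times; in the fit between cell types, where the animals of a day are shared, the block of day and replicate number left every count as reported. No source says that equal numbers mark the same animals. Between cell types of one day, deviations of libraries with the same number had a median correlation of 0.0678 over 144 pairs, with 63 above 0.1. For different numbers the median was lower, -0.0239 over 432 pairs, with 121 above 0.1.

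With single libraries left out, the counts ran from 0 to 8 in CMs at D1, 16 to 29 in ECs at D3, 15 to 26 at D28, 0 to 1 in FBs at D1, 8 to 24 at D14, 0 to 1 at D28, 11 to 24 in HCs at D3, 15 to 24 at D14, 12 to 26 at D28, 1 to 3 for the smaller FB change at D3, and 0 to 3 EC and 1 to 4 HC hairpins.

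At D7 the member sum was 0.0993% in CMs and 0.0828% in HCs by TMM-scaled size, 0.103% in CMs without miR-1a-3p in the total, and 0.245% in ECs, 1.42% in FBs and 0.0975% in HCs without the most abundant member. By TMM-scaled size the CM sum at D7 was 2.39 times D0, and at D28 it was 0.693 times D0 by TMM-scaled size. By library size alone, log2 values changed sign for mmu-miR-379-5p in CMs at D14 (1.26), mmu-miR-127-3p (0.75) and mmu-miR-434-5p (0.64) in CMs at D28, mmu-miR-136-3p between ECs and CMs (0.12), mmu-miR-136-5p (0.58), mmu-miR-376c-3p (0.80), mmu-miR-154-5p (1.00) and mmu-miR-410-3p (1.06) between HCs and CMs, and mmu-miR-379-5p in the FB change at D7 (-0.45). The cause was not tested.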
